A study of Homo sapiens with 6 samples.

Results

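Chemokine receptors are membrane proteins that sense gradients of small secreted proteins, the chemokines, and pass the signal to inhibitory G proteins, which steer the migration of leukocytes. In the T lineage they direct precursors into and through the thymus, and mature cells to lymph nodes, skin, gut and inflamed tissue. S1PR1 senses a lipid, sphingosine-1-phosphate (S1P), and is the receptor that lets T cells leave the thymus and lymph nodes. In T-cell leukaemia, CXCR4 is known for holding cells in the bone marrow and CCR7 for entry into the central nervous system in mouse models.

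This account covers 10 receptor genes, 9 for chemokines (CCR8, CCR7, CCR9, CCR4, CCR6, CXCR3, CXCR4, CXCR5 and CX3CR1) and S1PR1, picked by name out of 58096 genes listed. They were followed in ALL-SIL, an established line of human T-cell acute lymphoblastic leukaemia in which TLX1 is rearranged and NUP214 fused to ABL1, in 3 libraries labelled JQ1 and 3 labelled DMSO. JQ1 is an inhibitor of BET proteins that keeps their bromodomains off acetylated histones, and DMSO is its usual solvent control. The treatment text gives 1 µM JQ1 for 24 h for every library, so the groups rest on the sample titles, and the handling of the DMSO cells is not described further. A single cell line was used, grown in 20% serum, and nothing says whether a group's libraries were separate cultures; p-values therefore reflect the scatter among these libraries, possibly technical.

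Depth was 15925885 to 24857219 gene counts in JQ1 libraries and 20391040 to 25293884 in DMSO libraries. Levels are given in CPM, counts per 1000000 counts after scaling for library composition, as mean ± SD over 3 libraries. Changes are the log2 ratio of JQ1 to DMSO with its standard error (SE), called at an edgeR adjusted p under 0.05. Of 7 markers of this line (CD3D, CD3E, CD3G, CD2, CD5, CD7 and TLX1) all were tested. Their summed level was 824 to 1034.5 CPM in JQ1 libraries and 1163 to 1343 CPM in DMSO libraries. Of the 7 markers 6 were called lower and TLX1 higher, where 20.6% of all tested genes were called lower and 15.9% higher. The call on CD7 (edgeR adjusted p = 0.0492) was lost when any library other than JQ1 replicate 2 was left out (0.0779 to 0.142). CD2, one of the 7 markers, was near 0 with 3, 1 and 0 counts in JQ1 replicates 1 to 3, against 24, 29 and 49 in DMSO replicates 1 to 3.

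Of the 10 genes, 7 had enough counts to be tested, and 4 of these fell under JQ1 (CCR8, CXCR3, CCR7 and CCR4), while none rose. Among all 13975 tested genes 20.6% were called lower and 15.9% higher. CXCR4, the most abundant of the 10, averaged 249 ± 32.3 CPM in JQ1 and 241 ± 58.1 CPM in DMSO and did not pass the test. CCR9 and CXCR5 did not pass it either, and CCR6, CX3CR1 and S1PR1 had too few counts. Because a gene could be tested on the strength of its DMSO counts alone, the 7 tested genes do not stand for all 10. RNA was measured in bulk, so fewer cells carrying a receptor and less of its RNA in each cell cannot be told apart.

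Reference sequence before the start site is shown for CCR4 and CXCR3, which fell, and for CXCR4, which was not called, so that their base composition can be compared. Windows from RefSeq (GRCh38.p14) matched 8 of the 10 genes by symbol, all but CCR8 and CCR7. Each run is the 250 bases before the RefSeq start nearest to the gene's annotated 5′ end, written 5′ to 3′ on the gene's strand. That start can lie inside the annotated gene. The CCR4 window ends at 32951643, past the annotated start of the gene at 32951574, and those of CXCR3 and CXCR4 reach slightly into their genes. The CXCR5 window (118893142 to 118893391, not printed) lies wholly inside its annotated gene (118883766 to 118897799, plus strand). Capitals mark matches to any of the motifs named after them. CCR4 is at chr3:32951394-32951643 (plus strand), CXCR3 at chrX:71618512-71618761 (minus strand) and CXCR4 at chr2:136118150-136118399 (minus strand).
CCR4: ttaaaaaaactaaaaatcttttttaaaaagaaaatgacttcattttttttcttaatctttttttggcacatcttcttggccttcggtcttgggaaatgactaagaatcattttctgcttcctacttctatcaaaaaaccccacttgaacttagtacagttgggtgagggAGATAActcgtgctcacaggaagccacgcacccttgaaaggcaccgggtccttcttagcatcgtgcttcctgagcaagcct
CXCR3: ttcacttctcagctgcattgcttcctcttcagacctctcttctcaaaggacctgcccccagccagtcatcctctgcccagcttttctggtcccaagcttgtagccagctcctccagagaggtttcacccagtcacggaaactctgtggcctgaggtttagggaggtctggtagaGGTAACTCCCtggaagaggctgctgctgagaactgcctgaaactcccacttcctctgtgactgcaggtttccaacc
CXCR4: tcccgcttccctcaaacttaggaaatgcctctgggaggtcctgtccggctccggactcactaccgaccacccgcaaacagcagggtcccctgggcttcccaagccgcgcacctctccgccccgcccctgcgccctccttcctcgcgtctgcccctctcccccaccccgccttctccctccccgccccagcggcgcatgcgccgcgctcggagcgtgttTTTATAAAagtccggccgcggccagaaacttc

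The CXCR4 window had 68% G and C and 24 CpG pairs, against medians of 58% and 11 over all 35114 such windows. The windows of CCR4 (39.6% and 5 CpG pairs) and CXCR3 (54.8% and 1 CpG pair) were poorer in both than those medians. So were those of CCR9 (51.2% and 4) and CXCR5 (57.2% and 7), which were not called. The untested CCR6 (35.6% and 1) and CX3CR1 (55.2% and 4) were poorer too, while S1PR1 (64.4% and 18) was richer in both. The 3 printed windows thus do not stand for the 8, and a link of composition with the changes was not tested. The motifs searched on both strands were the E-box CACGTG, the TATA box TATAAA, the RUNX core TGTGGT, the ETS core CCGGAA, the NF-kB pattern of GGGA and, after any 4 bases, CC, the AP-1 pattern of TGA and TCA with 1 base between them, the GATA pattern AGATAA and the interferon regulatory factor (IRF) pattern of 2 GAAA runs with 2 bases between them. CXCR4 held TATAAA on both strands in overlapping matches that began 32 and 30 bases before the start. TATAAA was in 10.7% of all windows. CCR4 held the GATA pattern (9.17% of all windows) and CXCR3 the NF-kB pattern (22.6% of all windows), which was in 3 of the 8 windows, those of CCR9 and S1PR1 included. None of the 8 windows held the E-box, which is in 6.35% of all windows, the ETS core (14.5%) or the AP-1 pattern (6.57%). The RUNX core (10.98%) and the IRF pattern (3.02%) were found in 1 of the 8 windows each, that of CCR6. These are matches of letters and not binding sites.

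CCR8 is the receptor for the chemokine CCL1 and is best known from regulatory and type 2 helper T cells and skin-resident T cells. It lies on chromosome 3 (39329706 to 39333511, GRCh38, plus strand). CCR8 had 0.525, 1.03 and 0.516 CPM in JQ1 replicates 1 to 3, and 18.2, 23.9 and 23.9 CPM in DMSO replicates 1 to 3. Every JQ1 library was far below every DMSO library (26.0% of all tested genes had every JQ1 library below every DMSO library), and within JQ1 the highest was replicate 2. The JQ1 values rest on 13, 22 and 8 counts, against 369, 609 and 630 in DMSO. The log2 change was -4.97 ± 0.25, which is 31.3-fold lower (edgeR adjusted p = 3.93e-06), and between libraries of the same number the log2 ratio was -5.11, -4.53 and -5.53. By log2 change it was the 9th lowest of the 13975 tested genes.

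CCR4 binds CCL17 and CCL22 and is the target of an antibody used in adult T-cell leukaemia. It is carried on the same chromosome as CCR8 (32951574 to 32956349, plus strand) and was the second most abundant of the 10 genes. CCR4 had 27.0, 58.2 and 36.8 CPM in JQ1 replicates 1 to 3, and 116, 146 and 144 CPM in DMSO replicates 1 to 3. The groups did not overlap, and JQ1 replicate 2 lay above the other two JQ1 libraries. The mean was 40.7 ± 16.0 CPM in JQ1 and 135 ± 16.3 CPM in DMSO, a 3.33-fold fall (log2 change -1.73 ± 0.26, edgeR adjusted p = 0.00226). Unlike CCR8, this receptor kept 571 to 1240 counts per JQ1 library.

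CCR7 binds CCL19 and CCL21 and guides T cells into lymph nodes and across the thymus. It lies on chromosome 17 (40553769 to 40565472, minus strand). CCR7 had 2.91, 3.004 and 2.51 CPM in JQ1 replicates 1 to 3, and 12.9, 12.2 and 18.4 CPM in DMSO replicates 1 to 3. The JQ1 libraries lay close together and well under the DMSO libraries, among which replicate 3 was highest. The fall was 5.13-fold (log2 change -2.36 ± 0.20, edgeR adjusted p = 2.69e-05). The numbered pairs had log2 ratios of -2.14, -2.02 and -2.87.

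CXCR3, the receptor for the interferon-induced chemokines CXCL9, CXCL10 and CXCL11, was scarce in these cells. It lies on the X chromosome (71615916 to 71618517, minus strand). CXCR3 had 0, 3 and 1 counts in JQ1 replicates 1 to 3, and 31, 70 and 51 counts in DMSO replicates 1 to 3. That is 0.0684 ± 0.0705 CPM in JQ1 and 2.07 ± 0.623 CPM in DMSO, and the groups were fully separate. The log2 change was -4.88 ± 0.58 (edgeR adjusted p = 0.000165). With so few JQ1 counts its size is uncertain: it was -4.19 without JQ1 replicate 1, -6.09 without JQ1 replicate 2 and -2.84 when both strands were counted together, and it stayed called in each of these. On the opposite strand there were 8, 6 and 2 reads in JQ1 replicates 1 to 3 and 1, 8 and 9 in DMSO replicates 1 to 3, and no other annotated gene overlaps it.

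CXCR4, the receptor for CXCL12 of the bone marrow and thymic stroma, lies on chromosome 2 (136114349 to 136118165, minus strand). It had 227, 286 and 234 CPM in JQ1 replicates 1 to 3, and 291, 256 and 177 CPM in DMSO replicates 1 to 3. The groups overlapped, with the highest and the lowest value both in DMSO. The log2 change was 0.04 ± 0.17 (edgeR adjusted p = 0.869). Its sign turned with library size as the only scaling (-0.01), without JQ1 replicate 2 (-0.07) and without DMSO replicate 3 (-0.13), and over all alternatives it ran between -0.13 and 0.20. A p above the threshold does not show that CXCR4 was the same in both groups.

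CCR9, the receptor for CCL25 of the thymus and small intestine, was low and variable. CCR9 had 52, 47 and 12 counts in JQ1 replicates 1 to 3, and 32, 136 and 44 in DMSO replicates 1 to 3. DMSO replicate 2 was the highest library by far and the groups overlapped. The log2 change was -0.72 ± 0.55 (edgeR adjusted p = 0.345). It was 0.10 without DMSO replicate 2 (edgeR adjusted p = 0.875), and with the replicate number as a block it was -0.68 (edgeR adjusted p = 0.0446). CCR9 lies inside LZTFL1, a cilium-related gene read from the other strand, and its opposite-strand reads outnumbered its own in every library. They came to 40.2 ± 6.86 CPM in JQ1 and 32.03 ± 9.46 CPM in DMSO. With both strands together the CCR9 log2 change was 0.25 (edgeR adjusted p = 0.381). LZTFL1 itself was at 0.43 ± 0.16 (edgeR adjusted p = 0.0659). In edgeR it was called higher with the replicate block (adjusted p = 2.28e-06) and without JQ1 replicate 1 (0.60, 0.00723). It also passed when genes with few counts were kept (0.41, edgeR adjusted p = 0.000928) and by DESeq2 (0.44, DESeq2 adjusted p = 0.0279).

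CXCR5 binds CXCL13 and brings follicular helper T cells and B cells into follicles. It had 9, 8 and 10 counts in JQ1 replicates 1 to 3, and 7, 22 and 16 in DMSO replicates 1 to 3, with overlapping groups (log2 change -0.46 ± 0.43, edgeR adjusted p = 0.432). Here too the opposite strand held more reads, 1.77 ± 0.442 CPM in JQ1 and 2.65 ± 0.449 CPM in DMSO. AP004609.1 and BCL9L, a Wnt pathway coactivator, both overlap CXCR5 on that strand, and which of them the reads came from was not tested. BCL9L fell by 0.77 ± 0.24 on the log2 scale (edgeR adjusted p = 0.0311). That call did not hold when any library other than JQ1 replicate 2 was left out (0.0511 to 0.0989).

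The other three receptors were at or near 0. S1PR1 had 0, 1 and 1 counts in JQ1 replicates 1 to 3, and 8, 5 and 4 in DMSO replicates 1 to 3, so it was hardly present before any change. Its summed counts were 2 in JQ1 and 17 in DMSO, a ratio of 0.132 at equal depth (exact 95% interval 0.0148 to 0.556, counting error only), and between 0.0884 and 0.218 with 1 library left out. Tested without a filter on low counts it was called lower (edgeR adjusted p = 0.0305, with 12.7% of 26447 genes called lower). CX3CR1, the fractalkine receptor, had 0 counts in all JQ1 libraries and 2, 2 and 3 in DMSO replicates 1 to 3. With 3 counts over the JQ1 group as the floor, its DMSO level was 2.08 times that floor. The ratio was 1.26 without JQ1 replicate 1 and 1.35 without JQ1 replicate 2. It takes the DMSO counts as exact and is no lower bound, as their sum of 7 has an exact 95% interval of 2.81 to 14.4. Without the filter CX3CR1 was not called (edgeR adjusted p = 0.0741). CCR6, the receptor for CCL20, had 0 counts in all 6 libraries. For counted reads this allows up to 0.0477 CPM over the JQ1 group and 0.0425 CPM over the DMSO group. Another annotated gene, Z94721.2, overlaps CCR6 on the same strand. Reads lying in both genes may have been left out as ambiguous, so these values do not bound the CCR6 level itself.

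**Figure D1:**
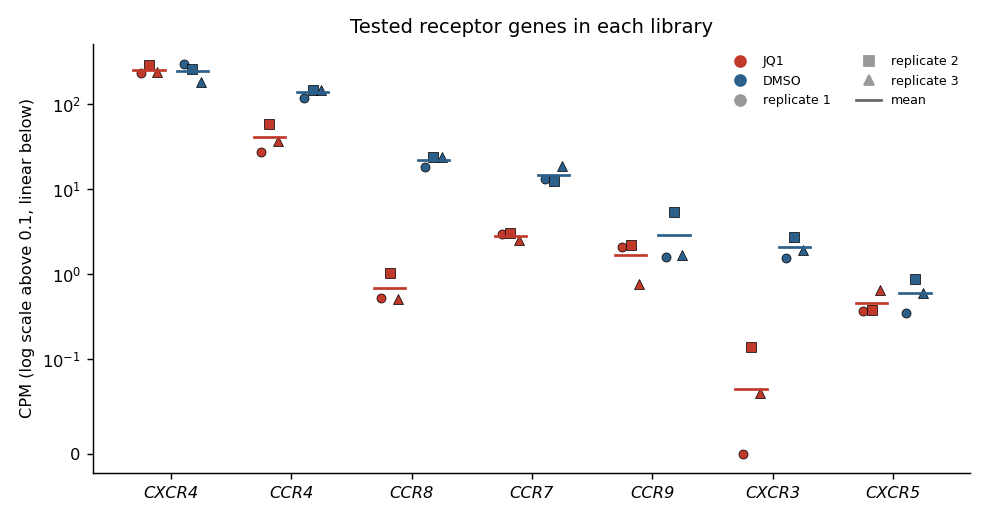
CPM of the 7 tested receptor genes in each library (symbols are replicates, bars are group means; the axis is logarithmic above 0.1 CPM and linear below). CCR4, CCR8, CCR7 and CXCR3 separate by group, while CXCR4, CCR9 and CXCR5 overlap; the lowest CXCR3 point is JQ1 replicate 1, with 0 counts.

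The plot of the tested genes by library also shows how they varied within a group. Among JQ1 libraries replicate 2 was the highest for 6 of the 7 tested genes, all but CXCR5. Among DMSO libraries replicate 2 was the highest for 5 of the 7, all but CXCR4 and CCR7, and replicate 1 the lowest for 5. Libraries of the same number deviated together across the transcriptome, and these shared deviations were not used in the tests.

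To compare receptors with each other, CPM was divided by the length of each gene's merged exons in kilobases. On this scale CXCR4 led in both groups with 112 ± 14.5 in JQ1 and 109 ± 26.1 in DMSO. CCR4 was second with 13.1 ± 5.16 in JQ1 and 43.7 ± 5.25 in DMSO. Below them the order differed. In JQ1 libraries CCR7 (1.12 ± 0.104) came next, followed by CCR9 (0.603 ± 0.284) and CCR8 (0.524 ± 0.224), whose ranges overlapped. In DMSO libraries CCR8 (16.7 ± 2.51) came before CCR7 (5.77 ± 1.35), without overlap, and both before CXCR3 (1.11 ± 0.333) and CCR9 (1.02 ± 0.765), which overlapped. S1PR1 and CX3CR1 could not be ordered in DMSO, nor CXCR3 and S1PR1 in JQ1. The ranks were the same with the longest transcript as the length.

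The summed level per kilobase of the 9 chemokine receptors was 113, 150 and 119 in JQ1 replicates 1 to 3, and 189, 189 and 153 in DMSO replicates 1 to 3. Without CXCR4 it was 11.1, 21.7 and 13.7 in JQ1, against 58.0, 73.6 and 73.6 in DMSO. CXCR4 made up 85.5% to 90.2% of the summed level of the 10 genes in JQ1 libraries and 52.0% to 69.2% in DMSO libraries. CCR4 made up 7.72% to 12.5% in JQ1 and 19.9% to 30.2% in DMSO. CCR8 made up 0.329% to 0.521% in JQ1 and 7.30% to 11.8% in DMSO. The 3 chemokine receptors that were most abundant after CXCR4 in DMSO thus each took a smaller share in JQ1, as CCR7 had 0.797% to 1.03% there and 2.58% to 4.78% in DMSO. These shares add up to a fixed whole, so that of CXCR4 moves with the others, and they are given without a test.

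**Figure D2:**
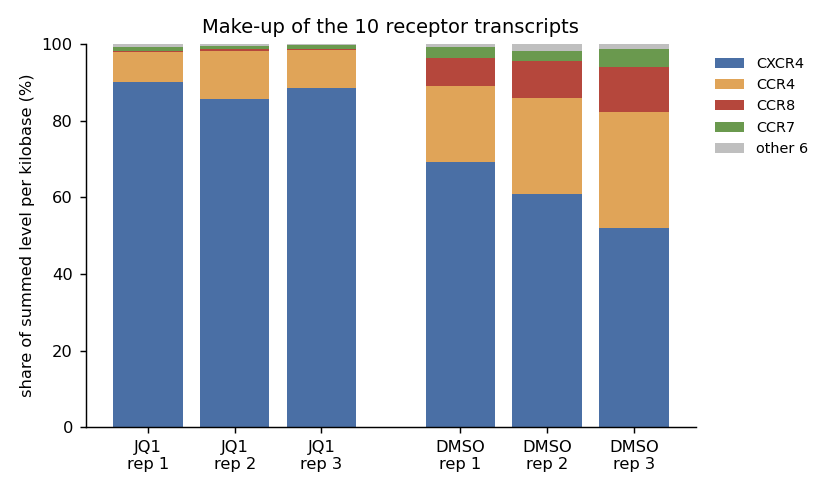
Share of each receptor in the summed level per kilobase of the 10 genes (percent, stacked), by library. CXCR4 takes 85.5% to 90.2% of the bar in the 3 JQ1 libraries and 52.0% to 69.2% in the 3 DMSO libraries, where the CCR8 segment is visible at 7.30% to 11.8%.

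The wider family of 14 other chemokine receptors had 3 tested genes, of which 2 fell and 0 rose, where 20.6% of all tested genes were called lower. CXCR6, the receptor for CXCL16 that marks tissue-resident T cells, had 4, 13 and 3 counts in JQ1 replicates 1 to 3, and 76, 165 and 90 in DMSO replicates 1 to 3. Its log2 change was -3.79 ± 0.45 (edgeR adjusted p = 0.000199), with -4.66 without JQ1 replicate 2 and -0.79 (still called) with both strands counted together. ACKR3, a decoy receptor that takes up CXCL12, had 2, 5 and 1 counts in JQ1, against 18, 24 and 16 in DMSO, with a log2 change of -2.59 ± 0.50 (edgeR adjusted p = 0.00255), or -3.35 without JQ1 replicate 2. CCRL2, which presents chemerin, was at -0.71 ± 0.32 (edgeR adjusted p = 0.112, and 0.00947 with the replicate block). The median log2 change of the 3, which is that of ACKR3, was -2.59, beside 0.00 over all tested genes. CXCR6 and ACKR3 could be tested on the strength of their DMSO counts. This median and the count of falls therefore lean to lower values and do not stand for all 14 genes.

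Among the untested receptors of this family, picked out after their counts were seen, CCR2 had 0 counts in every JQ1 library and 8, 8 and 36 in DMSO replicates 1 to 3. With 3 counts over the JQ1 group as the floor and the DMSO counts taken as exact, its DMSO level was 15.5 times that floor. The ratio was 7.34 without DMSO replicate 3, and 9.34 or 10.02 without JQ1 replicate 1 or 2. CCR1 had 2 summed counts in JQ1 and 22 in DMSO, a ratio of 0.102 (exact 95% interval 0.0116 to 0.415), which was 0.206 (0.0208 to 1.08) without DMSO replicate 2, 0.169 without JQ1 replicate 1 and 0.0683 without JQ1 replicate 3. ACKR2, which scavenges inflammatory chemokines, went the other way with 17 counts in JQ1 and 2 in DMSO. Without the filter on low counts CCR2 and CCR1 were called lower and ACKR2 higher (edgeR adjusted p = 1.2e-09, 0.00631 and 0.00773). In that fit 12.7% of 26447 genes were called lower and 8.67% higher. These calls use the same counts by which the genes were picked, so they add no separate support.

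**Figure D3:**
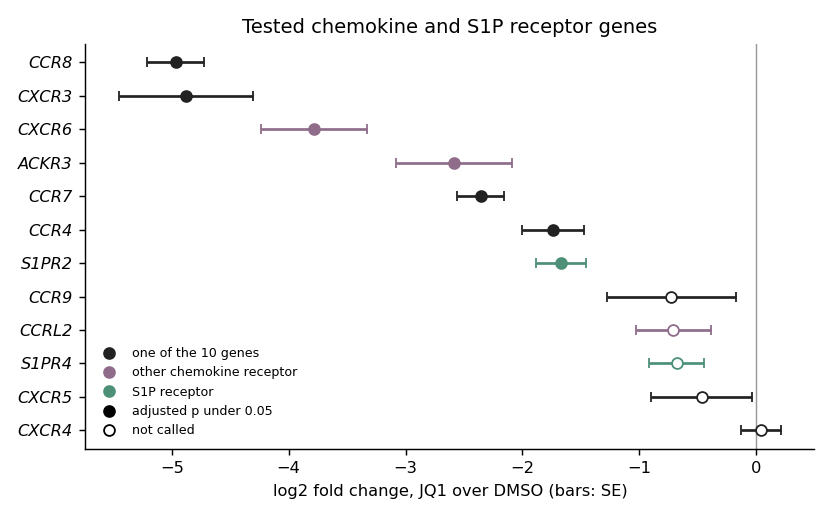
Log2 fold change of JQ1 over DMSO with its SE for the tested chemokine and S1P receptors (filled points pass an adjusted p of 0.05). CCR8 (-4.97) and CXCR3 (-4.88) lie farthest to the left and CXCR4 (0.04) lies at 0.

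The ligands were practically missing: of 36 chemokine genes 28 had no count in any library and none was tested. The most counts were those of CCL25, the ligand of CCR9, with 9, 10 and 8 counts in JQ1 replicates 1 to 3, and 1, 3 and 1 in DMSO replicates 1 to 3. The groups did not overlap, and without the filter CCL25 was called higher (edgeR adjusted p = 0.00243, with 8.67% of genes called higher). CCL25 was picked by its counts, which lay mostly in JQ1 libraries (27 summed, against 5 in DMSO), so this call adds no separate support. CXCL12, the ligand of CXCR4, had 1 count in all.

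Near S1PR1 in function, 8 of 13 genes of S1P sensing and turnover were tested, with 2 higher and 2 lower (median log2 change -0.50; 15.9% of all tested genes were called higher and 20.6% lower). S1PR2, an S1P receptor that restrains migration, had 2.08 ± 0.341 CPM in JQ1 and 6.66 ± 1.12 CPM in DMSO and fell by 1.67 ± 0.21 (edgeR adjusted p = 0.000254). S1PR4, an S1P receptor of lymphocytes, had 35.4 ± 13.5 CPM in JQ1 and 56.8 ± 5.57 CPM in DMSO, which did not pass the test (-0.68 ± 0.24, edgeR adjusted p = 0.0579). S1PR4 was called lower by DESeq2 (-0.67, DESeq2 adjusted p = 0.00750) and by limma-voom (-0.74, limma-voom adjusted p = 0.0303). In edgeR it passed without composition scaling (-0.75, adjusted p = 0.0322) and when genes with few counts were kept (-0.70, 0.000577). It also passed with the replicate block (-0.72, edgeR adjusted p = 0.0429) and without JQ1 replicate 2 (-1.04, 0.000212). The remaining alternatives left it uncalled. SGPL1, the lyase that breaks S1P down, fell by 0.78 ± 0.12, while SGPP1, an S1P phosphatase, rose by 0.61 ± 0.10 (edgeR adjusted p = 0.000647 and 0.000792). SPNS2, the S1P exporter, had 26, 52 and 22 counts in JQ1 and 5, 13 and 10 in DMSO and rose by 2.07 ± 0.42 (edgeR adjusted p = 0.00333). The call on SPNS2 was lost when both strands were counted together (0.54, edgeR adjusted p = 0.134). With the replicate block 4 genes of the list were lower, where 29.6% of all tested genes were.

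Regulators of entry into and exit from lymphoid organs were looked at as well. KLF2, a factor that activates S1PR1 in mouse T cells, had 3, 15 and 5 counts in JQ1 and 9, 19 and 16 in DMSO, with a log2 change of -0.68 ± 0.53 (edgeR adjusted p = 0.349). It was -1.55 without JQ1 replicate 2 (edgeR adjusted p = 0.0620) and -0.18 without JQ1 replicate 1. FOXO1, which acts upstream of KLF2, was at 0.08 ± 0.20 and KLF3 at -0.10 ± 0.13, and neither passed the test.

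Of 14 tested genes that switch receptors off 9 fell and 1 rose, with a median log2 change of -0.48, where 20.6% of all tested genes were called lower and 15.9% higher; the difference from other genes was not tested. RGS proteins speed up the return of G proteins to rest. RGS3, RGS14 and RGS18 fell, with log2 changes of -2.71 ± 0.20, -1.11 ± 0.12 and -4.15 ± 0.56 (edgeR adjusted p = 1.41e-05, 0.000109 and 0.000396). RGS18 rests on 2, 6 and 1 counts in JQ1, against 41, 108 and 46 in DMSO, and its change was -5.07 without JQ1 replicate 2. This gene could be tested only on the strength of its DMSO counts. RGS2 was the single rise, with 10.1 ± 0.916 CPM in JQ1 and 3.26 ± 0.805 CPM in DMSO (1.64 ± 0.20, edgeR adjusted p = 0.000173). The receptor kinase genes GRK2 and GRK3 and the arrestin genes ARRB1 and ARRB2 were all called lower, with log2 changes of -0.36 ± 0.11, -0.54 ± 0.14, -1.78 ± 0.25 and -0.43 ± 0.10, whereas GRK5 and GRK6 were not called. The call on GRK2 was lost without JQ1 replicate 1, DMSO replicate 2 or DMSO replicate 3 (edgeR adjusted p = 0.113, 0.0504 and 0.0895).

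Among genes that carry the signal on, 3 of 27 tested were higher and 7 lower (median log2 change -0.20), near the shares of 15.9% and 20.6% over all tested genes. With the replicate block 13 were lower, where 29.6% of all tested genes were. The inhibitory G protein genes GNAI2 and GNAI3, the partners of chemokine receptors, rose by 0.53 ± 0.10 and 0.29 ± 0.09. The call on GNAI3 (edgeR adjusted p = 0.0272) was lost without composition scaling (0.0620), with unstranded counts (0.0514), and without JQ1 replicate 1 or 3 or DMSO replicate 2 or 3 (0.0716 to 0.0820). GNAI2 had 334 ± 27.9 CPM in JQ1 and 232 ± 8.73 CPM in DMSO. TIAM1, an activator of the cytoskeletal switch RAC1, rose by 0.82 ± 0.08 (edgeR adjusted p = 6.37e-05). The kinase gene PTK2B fell by 1.08 ± 0.13, GNA15 by 1.17 ± 0.16 and the phospholipase gene PLCB2 by 1.31 ± 0.18 (edgeR adjusted p = 0.000164, 0.000542 and 0.000551). DOCK2 and ELMO1, which together activate RAC proteins in migrating lymphocytes, fell by 0.39 ± 0.10 and 0.68 ± 0.14, the DOCK2 call being lost without JQ1 replicate 1 (edgeR adjusted p = 0.0599).

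**Figure D4:**
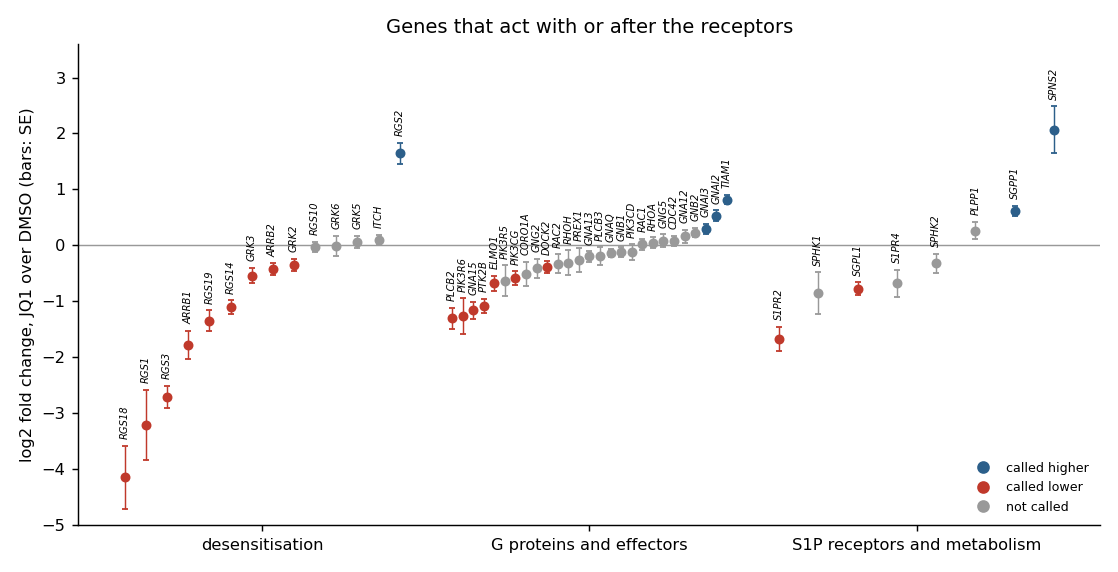
Log2 fold change of JQ1 over DMSO with its SE for every tested gene of 3 lists, in rising order within a list. In the desensitisation list 9 of 14 genes are called lower and RGS2 alone is called higher; in the G protein and effector list 7 of 27 are called lower and 3 higher.

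Several of these receptors mark T-cell subsets, so the subset regulators were looked at. Of 8, 4 were tested, with 1 higher and 1 lower (median log2 change -0.08). Of all tested genes 15.9% were called higher and 20.6% lower. IKZF2, a factor of regulatory and early T cells, fell by 2.15 ± 0.12 (61.5 ± 4.75 CPM in JQ1 and 272 ± 39.7 CPM in DMSO, edgeR adjusted p = 5.52e-06). BCL6, the factor of follicular helper cells, rose by 0.69 ± 0.22 (edgeR adjusted p = 0.0319), but not when JQ1 replicate 1 or 2 or DMSO replicate 2 or 3 was left out (edgeR adjusted p = 0.0831, 0.0905, 0.0719 and 0.0966). GATA3, the type 2 helper factor, was at -0.11 ± 0.25 and EOMES at -0.05 ± 0.17, and neither passed the test. FOXP3, which defines regulatory T cells, had 7 summed counts in JQ1 and 5 in DMSO.

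By position, CCR8 and CX3CR1 are neighbours, 48.0 kb apart. Around the 4 genes that fell, the 2 nearest tested protein-coding genes on each side gave 16 genes, of which 4 were lower and 1 higher (36.6% of all tested genes were called in either direction). Beside CCR8, SLC25A38 fell by 0.31 ± 0.08, and CSRNP1, TTC21A and RPSA were not called. Beside CCR4, TRIM71 (53.7 kb away) fell by 1.59 ± 0.20, and CNOT10, GLB1 and TMPPE were not called. Beside CCR7, IGFBP4 (96.0 kb away) fell by 2.91 ± 0.52 and KRT10 by 0.56 ± 0.16, a call lost without JQ1 replicate 2 or 3 or DMSO replicate 1 or 2 (edgeR adjusted p = 0.0604 to 0.0876), and TOP2A and SMARCE1 were not called. Beside CXCR3, GCNA rose by 0.58 ± 0.20, a call lost when any library other than JQ1 replicate 1 was left out (edgeR adjusted p = 0.0639 to 0.145), and OGT, PIN4 and ERCC6L were not called. CCR9, which was not called, lies 37.8 kb from CXCR6, which fell.

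The protein-coding genes with the pattern most like that of a receptor were found by the Euclidean distance of log2 CPM over the 6 libraries, each gene centred on its own mean, among 10666 genes. For CCR8 these included EPHA1 (distance 0.990) and MGAT3 (1.06). For CCR7 they were TSPAN4 (0.249), METAP1D (0.408) and OAS3 (0.415), and for CXCR4 they included RAMAC (0.187) and SOCS1 (0.201). With 2 groups, such a distance reflects mostly the size of the difference between them.

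Markers of other cell types were checked, since several of the receptors are also made by B cells, monocytes and NK cells. Of 6 B-cell markers MS4A1 was at 0, and the summed level of the list was 1.61 to 6.34 CPM in JQ1 and 11.5 to 24.5 CPM in DMSO, led by CD79A, with CD79B called lower. Of 8 monocyte and granulocyte markers 4 were at 0, among them MPO, and the sum was 0.0808 to 0.329 CPM in JQ1 and 0.246 to 0.471 CPM in DMSO. Of 6 NK-cell markers NCAM1, KLRF1 and NCR1 were at 0; the sum was 41.6 to 134 CPM in JQ1 and 132 to 223 CPM in DMSO, nearly all NKG7. Of 5 erythroid markers 4 were at 0, and the sum was 0 in JQ1 libraries and at most 0.0393 CPM in DMSO libraries. Of 6 stromal and endothelial markers COL1A2, COL3A1 and VWF were at 0; the sum was 7.86 to 13.3 CPM in JQ1 and 75.9 to 100.6 CPM in DMSO, mostly PECAM1, with PECAM1 and PDGFRB called lower. The part of the B-cell, NK-cell and stromal genes that moved with the receptors was not tested.

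**Figure D5:**
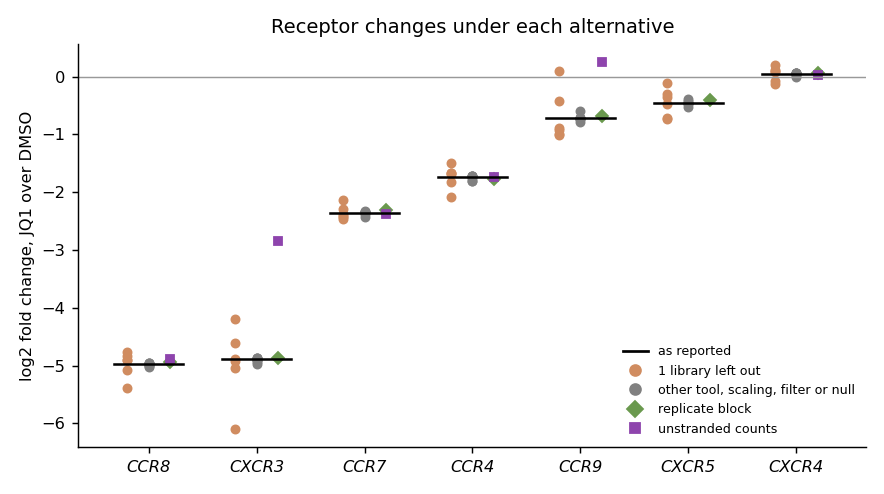
Log2 fold change of JQ1 over DMSO for the 7 tested receptor genes as reported (black line) and under each alternative (points). CCR8, CXCR3, CCR7 and CCR4 stay below 0 throughout, CXCR3 moves to -2.84 with unstranded counts, and CCR9 and CXCR4 have points on both sides of 0.

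The plot of the alternatives shows that the log2 change lay between -5.39 and -4.76 for CCR8, between -2.46 and -2.14 for CCR7 and between -2.09 and -1.50 for CCR4, and all 3 genes, like CXCR3, were called under each of the 16 alternatives. That holds with the replicate block, where 29.6% of all tested genes were called lower, with unstranded counts (18.1%), and when testing for changes beyond 1.5-fold (6.43%).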

How the data were processed

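Total RNA was sequenced with a stranded kit, per the labels' protocols; per the submitters' processing notes the build was GRCh38. The deposited files hold raw counts of reads per gene, unstranded and by strand; the reverse-strand column was used, as it held 20.9 to 22.6 times the counts of the other. Aligner and annotation: not given in the sources used here. The 4 leading read classes stayed out of totals (18.8% to 26.1% of reads lay in no gene, 14.1% to 15.7% mapped to several places). Of 58096 identifiers 57492 matched GENCODE release 29, which gave names, lengths and positions. No positions are printed for CCR6 and S1PR1, whose versions differed.

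Genes were kept with filterByExpr (minimum count 10), leaving 13975, scaled by TMM and tested on the group alone with edgeR 4.0.16 (glmQLFTest, robust) in R 4.3.3, with Benjamini-Hochberg adjustment; SE is the log2 change over the square root of F. Alternatives were DESeq2 1.42.0, limma-voom (limma 3.58.1), other scalings, filters, strand and null, the replicate block and each library left out. Libraries sharing a number in the titles correlated in their deviations from the group means (0.33, 0.43 and 0.37 across genes), so they can be taken as pairs; what a number marks is not stated. Intervals cover counting error only, and a floor covers that of the group at 0 counts only.

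The receptors and gene lists were chosen with earlier results of these data known. Named genes were the 10 receptors, up to 4 genes per list with the smallest p and the most abundant marker of each other cell type. Neighbours of called receptors and the 3 genes most like CCR8, CCR7 and CXCR4 were named too. Others were added after their values were seen. These were DOCK2, ELMO1, GNAI2, GNAI3, the GRK and arrestin genes, S1PR4, CCR1, CCR2, ACKR2, CCL25, CXCL12 and FOXP3. LZTFL1, BCL9L, CD2, CD79B, PDGFRB and the markers at 0 were added in the same way. Some genes that the rule names are not reported here.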

Additional observations from a re-analysis of the deposited data

How the results depend on the processing

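The count of receptors called lower was 4 in the reported fit and in 14 of the 16 alternatives; it was 5 without a filter on low counts, where S1PR1 was added, and 5 with the replicate block, where CCR9 was added. No receptor was called higher in any of the 16. Among the other signs that turned, none belonged to a called gene. CCR9 was at 0.25 with unstranded counts and ran from -1.004 to 0.10 with 1 library left out, with 0.10 without DMSO replicate 2. CXCR4 was at -0.013 with library size only, and ran from -0.13 to 0.20 with 1 library left out. With 1 library left out EOMES ran from -0.16 to 0.037, FOXO1 from -0.023 to 0.23 and GATA3 from -0.29 to 0.11.

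Over all genes 3813 were higher with the replicate block, as against 2227 reported; testing for changes beyond 1.5-fold left 246 higher and 899 lower (2883 reported). Against that fold change 1 S1P gene was higher and 1 lower, 1 effector gene was higher and 3 were lower, and 0 subset regulators were higher. Without a filter on low counts 1 other chemokine receptor was higher and 4 were lower, 11 effector genes were lower and 3 subset regulators were lower; with at least 1 CPM in 3 libraries 1 other receptor was lower. With unstranded counts 1 S1P gene was higher. The replicate block gave 4 S1P genes and 13 effector genes lower, and made CCR9, CCRL2, S1PR4, LZTFL1, SMARCE1, ERCC6L and CD79A pass (edgeR adjusted p = 0.0446, 0.00947, 0.0429, 2.28e-06, 0.0115, 0.00856 and 0.0106). With 1 library left out 0 to 1 subset regulators were higher. The block changed no other call on a tested gene named in the text. Depth limits what can be said of CCR6, with no count, and of CXCR3, CXCR5, S1PR1 and CX3CR1, with at most 10 counts in any JQ1 library. For CCR6 the overlap with Z94721.2 on the same strand is a further limit.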
